A study of Homo sapiens with 9 samples.

Results

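The SOX and FOX transcription factors were followed in HMEC-1, an immortalised line of human dermal microvascular endothelial cells, by RNA sequencing. Members were taken by their symbol alone, SOX or FOX followed by the usual letters and numbers, and 69 of the 29740 gene symbols in the count table matched, 19 SOX and 50 FOX genes. The 3 groups were untreated cells (CTRL), cells given 50 µM trimethylamine N-oxide (TMAO), a metabolite derived from gut bacteria, for 24H, and cells given the same dose for 48H, with 3 libraries in each group. All cells came from the same line, and treatment took place in medium low in serum. The labels do not say how long the controls were cultured, so TMAO and time in culture cannot be told apart. The labels also do not say that libraries came from separate cultures, so p-values measure only the spread between these libraries.

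SOX proteins bind DNA through a high-mobility-group box, which sits in the minor groove and bends the helix, and they usually act with a partner factor. FOX proteins bind through a forkhead domain, a winged helix whose recognition helix reads the major groove. In endothelium, the SOXF genes SOX7, SOX17 and SOX18 take part in vessel, arterial and lymphatic development, FOXC1 and FOXC2 in vessel and lymphatic valve formation, and the FOXO factors in quiescence and growth control, while FOXM1 drives genes of the late cell cycle in dividing cells of many kinds.

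Libraries held 25205756 to 36927373 estimated counts. Ribosomal RNA genes took 31.5% of the counts in TMAO 24H replicate 1 and 1.64% to 7.46% in the other 8 libraries, and SOX and FOX genes together took 0.0963% in that library and 0.131% to 0.146% in the others. The line expressed PECAM1 at 277 to 365 CPM (counts scaled to a common effective library total) and CDH5 at 552 to 747, while CLDN5, a tight junction gene of endothelium, lay at 1.21 to 1.89. Of the leukocyte markers, CD3E was at 0 in every library, and PTPRC reached 0.0994 CPM, CD79A 0.174, LYZ 0.397 and CD14 1.31. CD68, from the same list, was clearly present, with 18.2 CPM in its lowest library. KRT5, a keratin of stratified epithelium, lay at 25.1 to 53.6 CPM in 8 libraries and at 4.12 in TMAO 48H replicate 3, and EPCAM at 6.64 to 9.53 and at 1.25. Both of these libraries therefore stood apart in part of their RNA. Results for SOX and FOX members are also given below without them where that changes a call. Results for listed genes and markers are given with all 9 libraries only.

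The parts of the genes that encode the DNA-contacting segments are shown because they show how alike or unlike these segments are in SOX4, FOXN3 and some of their relatives described below. SOX17 is not shown here. The first set is a stretch of 36 coding bases of the high-mobility-group box, read from GENCODE release 29 transcripts (GRCh38) and lying within one exon, with capitals where a base differs from SOX4. The places are chr6:21594715-21594750 (+ strand) for SOX4, chr20:326048-326083 (+ strand) for SOX12, chr1:204123705-204123740 (+ strand) for SOX13 and chr20:64049223-64049258 (- strand) for SOX18.
SOX4: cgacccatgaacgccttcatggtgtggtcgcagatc
SOX12: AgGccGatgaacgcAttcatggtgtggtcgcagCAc
SOX13: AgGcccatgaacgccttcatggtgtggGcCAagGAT
SOX18: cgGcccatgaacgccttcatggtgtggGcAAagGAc
SOX12 and SOX18 each differed from SOX4 at 6 of the 36 bases, and SOX13 at 8. This short count of bases does not rank their likeness to SOX4. Over the 70 residues encoded from the start of the stretch, SOX12 was 88.6% identical to SOX4, SOX18 60% and SOX13 57.1%.

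The second set is the 30 coding bases around the forkhead recognition helix, with capitals where a base differs from FOXC2. The places are chr16:86567681-86567710 (+ strand) for FOXC2, chr16:86579000-86579029 (+ strand) for FOXL1, chr20:31845330-31845359 (- strand) for FOXS1 and chr14:89411976-89412005 (- strand) for FOXN3, each within one coding exon.
FOXC2: tggcagaacagcatccgccacaacctctcg
FOXL1: tggcagaacagcatccgccacaacctctcg
FOXS1: tggcagaacagcatccgccacaacctGtcA
FOXN3: tggAaAaacTCAGtGAgAcacaaTTtAtcA
FOXL1 was identical to FOXC2 over this stretch, as were FOXC1 on chromosome 6 and FOXD1 on chromosome 5, among others. FOXC2 and FOXL1 are neighbours on chromosome 16, where FOXF1 differed from FOXC2 at 5 bases. FOXS1 differed at 2 bases and FOXN3 at 13.

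Of the 69 members, 31 had counts high enough to be tested, 8 SOX and 23 FOX genes, among 14740 genes tested in all. The other 38 stayed below the expression filter, and their highest estimated count in a library was 11. Of these, 8 were at 0 in all 9 libraries (FOXB1, FOXB2, FOXN1, FOXN4, FOXR1, FOXR2, SOX1 and SOX14) and 21 had a summed count under 20. The remaining 9 reached a summed count of at least 20, namely SOX8 (68), FOXA1 (57), FOXA2 (47), SOX30 (43), FOXP3 (41), FOXH1 (37.1), FOXQ1 (34), FOXD4 (23) and SOX10 (22). FOXA1 and FOXA2, known for liver and gut, had at most 10 counts in a library, and FOXP3, the factor of regulatory T cells, at most 8.

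Levels between genes were compared per length, as CPM per kilobase of the longest protein-coding transcript, in controls. FOXM1 led with 80.03 ± 4.39 (SD, n = 3), followed by FOXK2 with 20.5 ± 1.41 and SOX4 with 16.1 ± 0.379, and the libraries of each of these 3 did not overlap with those of the gene directly below it, although SOX4 overlapped with SOX18 further down. FOXJ3 (14.9 ± 0.584), SOX18 (14.7 ± 1.19), SOX7 (13.7 ± 0.842) and SOX12 (12.9 ± 0.383) overlapped in a chain, each with its neighbour. SOX17 (11.4 ± 0.198), FOXN3 (11.2 ± 0.731), FOXP4 (11.0 ± 1.18), SOX13 (10.5 ± 0.597), FOXP1 (10.2 ± 0.415), FOXO4 (9.65 ± 0.222), FOXJ2 (9.49 ± 0.542) and FOXO1 (8.74 ± 0.301) formed another such chain. By mean, all 3 SOXF genes stood among the 8 highest members per length, although SOX17 overlapped with FOXN3 and FOXP4 below it. Of the FOXC pair, FOXC2 had 5.47 ± 0.512 and FOXC1 0.633 ± 0.0741 CPM per kilobase, and the order closed with FOXF1 at 0.223 ± 0.0451 and FOXD1 at 0.129 ± 0.0526.

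**Figure D1:**
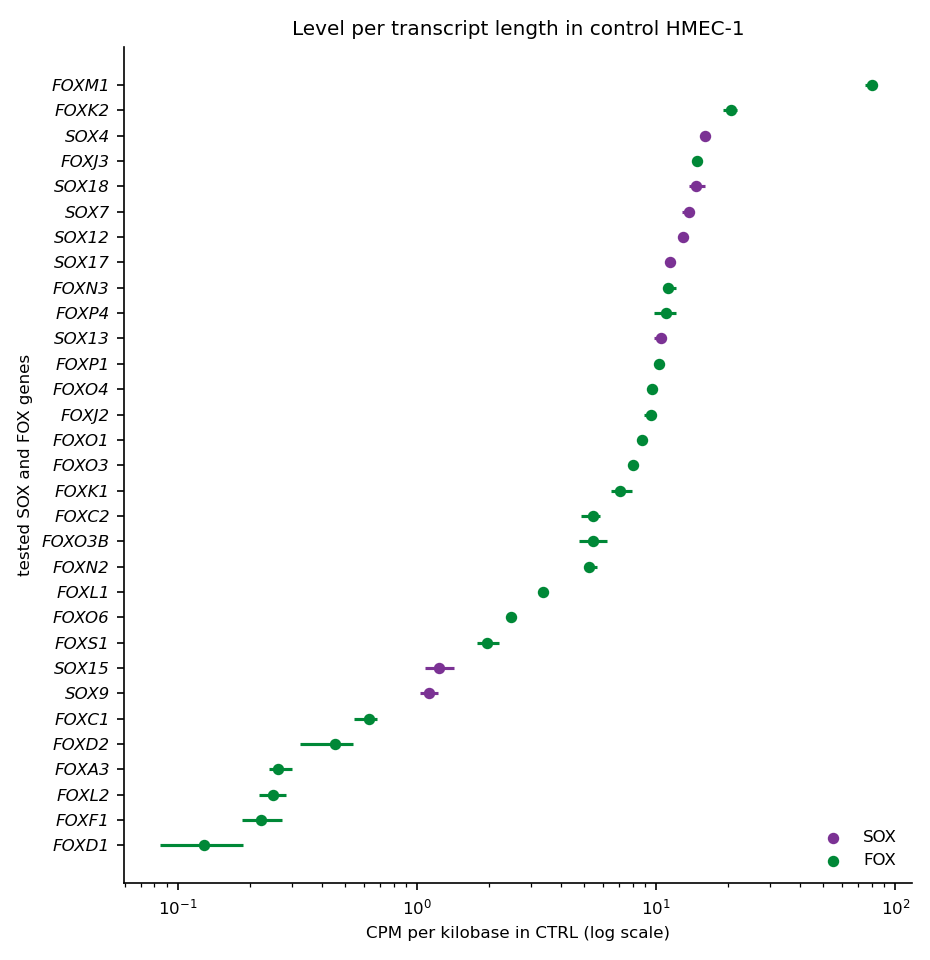
Level of the 31 tested SOX and FOX genes in control HMEC-1, in CPM per kilobase of transcript on a log scale, with points for the mean and lines from the lowest to the highest of the 3 control libraries. FOXM1 stands alone at 80.03, the 3 SOXF genes lie between 11.4 and 14.7, and FOXD1 closes the order at 0.129.

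After 24H of TMAO, no SOX or FOX gene passed the test, which here means an adjusted p under 0.05 in edgeR's quasi-likelihood test at any fold, and a gene is called when it also changed at least 1.4-fold. Over all genes, 0% passed as higher, 0.095% passed as lower and 0.0475% were called, so few genes of any kind differed at 24H. Of the 31 members, 11 were higher and 20 lower in estimate, 26 stayed within 1.2-fold of control, and at an unadjusted p under 0.05 there was 1 higher member (FOXA3) and 4 lower (SOX12, SOX17, SOX18 and FOXC2), while over all genes 2.77% were higher and 4.47% lower at that p. DESeq2, used as an alternative, gave 1 member, FOXC2, and without TMAO 24H replicate 3 there were 2, FOXC2 and SOX18. Over all genes, 55 and 12 passed in these fits. The median log2 fold change of the members was -0.022, against -0.00042 over all genes.

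After 48H, 3 members passed. SOX17 and SOX4 were lower and FOXN3 was higher, and SOX17 alone was called. Over all genes, 5.13% passed as higher, 5.29% as lower and 1.8% were called, so 1 higher and 2 lower of 31 members are shares near this background. The median log2 fold change was -0.038 for the members and 0.0040 for all genes, and 24 of the 31 members stayed within 1.2-fold of control. Without TMAO 24H replicate 1 or without TMAO 48H replicate 3, 4 members passed at 48H, SOX17 and SOX4 among them both times. Over all genes, 1271 and 1594 passed in these fits. Between the time-points the same 3 genes passed in the same directions, SOX17 and SOX4 lower and FOXN3 higher at 48H than at 24H, with none called. Over all genes, 3.77% passed as higher, 3.76% as lower and 1.7% were called in that contrast, which shares the TMAO 48H libraries with the contrast against controls. The median there was 0.018 for the members and 0.0040 for all genes.

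**Figure D2:**
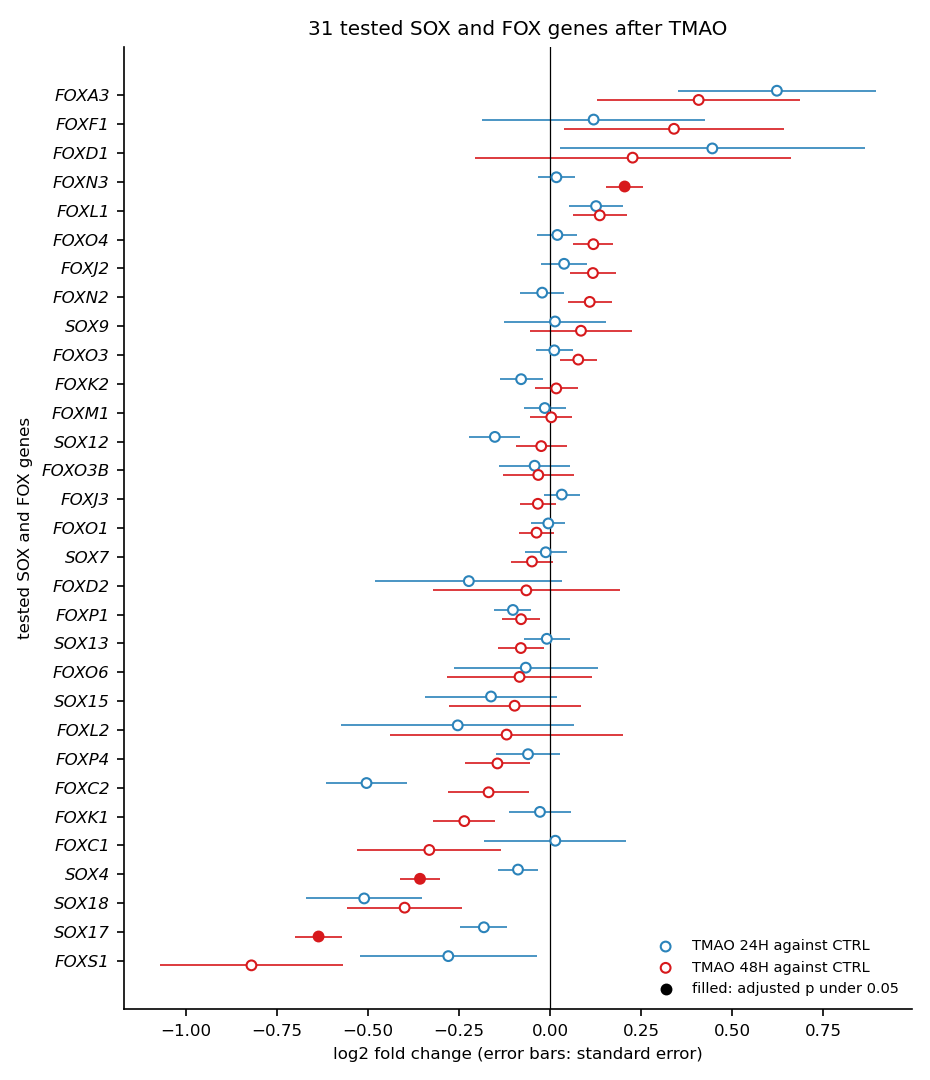
Log2 fold change against CTRL of the 31 tested SOX and FOX genes after 24H (blue) and 48H (red) of TMAO, with standard errors as bars and filled points for an adjusted p under 0.05. Most points lie near 0, and the 3 filled points are SOX17, SOX4 and FOXN3, all at 48H.

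SOX17, the SOXF factor best known for arterial identity, had 801, 828 and 808 normalised counts in the 3 controls, 704, 698 and 746 after 24H and 568, 503 and 497 after 48H. Every control library lay above every 24H library, and every 24H library above every 48H library. The means were 813 ± 14.1 (SD, n = 3), 716 ± 26.0 and 523 ± 39.4. The log2 fold change at 48H was -0.64 with a standard error of 0.0649 (adjusted p = 8.0e-05), a level 0.643 times that of controls. At 24H it was -0.18 with a standard error of 0.0645, and this difference did not pass (adjusted p = 0.546). From 24H to 48H the log2 difference was -0.45 with a standard error of 0.0648 (adjusted p = 0.000704). Without TMAO 48H replicate 3, the library low in KRT5, the log2 fold change at 48H was -0.60 (adjusted p = 0.000350).

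The other SOXF genes did not pass. SOX7 had 1395, 1389 and 1249 normalised counts in controls, 1296, 1296 and 1406 after 24H and 1256, 1276 and 1362 after 48H. The 3 groups overlapped, and the log2 fold changes were -0.01 at 24H (standard error 0.0577) and -0.05 at 48H (standard error 0.0578, adjusted p = 0.636).

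SOX18, which acts in lymphatic development, had 816, 909 and 778 normalised counts in controls, 428, 542 and 785 after 24H and 647, 675 and 574 after 48H. The 48H libraries lay below all controls, while the 24H libraries were spread widely, with replicate 3 inside the control range. The log2 fold change was -0.51 at 24H (standard error 0.159, adjusted p = 0.4996) and -0.40 at 48H (standard error 0.159, adjusted p = 0.129). Whether it passed depended on single libraries of the 24H group, which also enter the common estimate of the spread. Without TMAO 24H replicate 3, SOX18 passed at 24H (-0.78, adjusted p = 0.0200) and at 48H (adjusted p = 0.0239), and without TMAO 24H replicate 1 it passed at 48H (adjusted p = 0.0445) and its 24H value was -0.33 (adjusted p = 0.988). With only controls and 48H libraries in the fit, the adjusted p at 48H was 0.0123, and under a correction for GC content the 48H value was -0.24 (adjusted p = 0.352).

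Among the SOXC genes, which act in progenitor cells and in cell survival, SOX4 fell and SOX12 did not pass. SOX4 had 2799, 2852 and 2933 normalised counts in controls, 2844, 2584 and 2643 after 24H and 2397, 2087 and 2214 after 48H. All 48H libraries lay below all others, and the 24H libraries overlapped the controls. The means were 2861 ± 67.5 (SD, n = 3), 2690 ± 136 and 2233 ± 156. The log2 fold change was -0.36 at 48H (standard error 0.0539, adjusted p = 0.0013), which is under 1.4-fold, and -0.27 from 24H to 48H (standard error 0.0539, adjusted p = 0.00788). At 24H it was -0.09 (standard error 0.0538, adjusted p = 0.795). Without TMAO 48H replicate 3 the value at 48H was -0.35 (adjusted p = 0.00434).

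SOX12 had 1784, 1884 and 1797 normalised counts in controls, 1446, 1646 and 1824 after 24H and 1783, 1877 and 1711 after 48H. Its log2 fold change was -0.15 at 24H (standard error 0.0699, adjusted p = 0.683) and -0.02 at 48H (standard error 0.0699), and the estimate at 48H had the other sign under a correction for GC content. SOX13, a SOXD factor, went from 1141 ± 65.2 normalised counts in controls to 1133 ± 14.9 and 1078 ± 88.4 (SD, n = 3 each). SOX9, the factor of cartilage formation, and SOX15 were low, with 134 ± 11.5 and 52.3 ± 7.47 normalised counts in controls, and neither passed in any contrast.

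**Figure D3:**
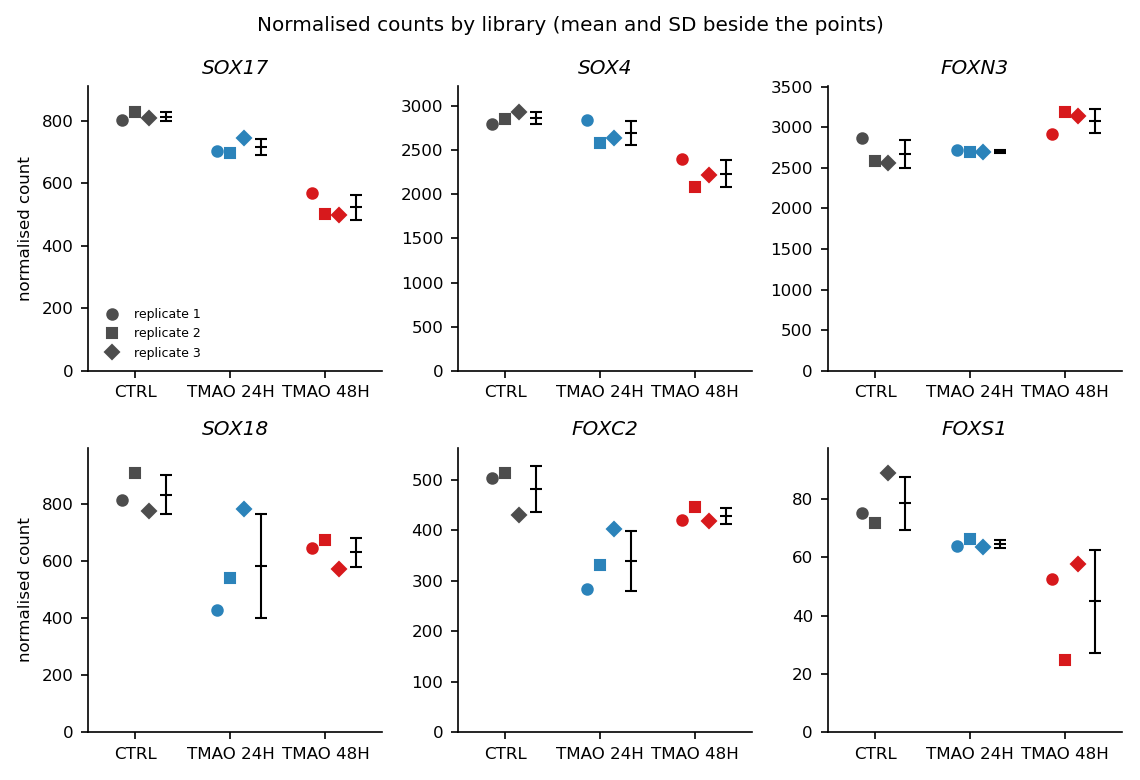
Normalised counts of 6 members in each of the 9 libraries, one panel per gene with an axis from 0, with the mean and SD drawn beside each group of 3. SOX17 and SOX4 step down at 48H and FOXN3 steps up, while SOX18 and FOXC2 spread widely within the 24H group.

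FOXN3, a forkhead repressor linked to the DNA damage checkpoint, was the FOX gene that passed. It had 2874, 2588 and 2558 normalised counts in controls, 2726, 2691 and 2696 after 24H and 2915, 3189 and 3136 after 48H. All 48H libraries lay above all others, although the lowest of them exceeded the highest control by a small margin. The log2 fold change was 0.20 at 48H (standard error 0.0507, adjusted p = 0.0222) and 0.19 from 24H to 48H (standard error 0.0507, adjusted p = 0.0398), with 0.02 at 24H (adjusted p = 0.978). It no longer passed at 48H without CTRL replicate 2 (adjusted p = 0.0957), CTRL replicate 3 (0.0678), TMAO 48H replicate 2 (0.0998) or TMAO 48H replicate 3 (0.0509), while the estimate stayed between 0.17 and 0.26 in these and the other fits run. Between the time-points it no longer passed in 6 of 9 fits without a single library, those without CTRL replicate 2, any TMAO 24H library or TMAO 48H replicate 2 or 3 (adjusted p = 0.0528 to 0.160). Its relative FOXN2 had 861 ± 58.4 normalised counts in controls and 928 ± 24.4 at 48H (SD, n = 3 each), with a log2 fold change of 0.11 that did not pass (adjusted p = 0.279).

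FOXC2, a factor of lymphatic valves, had 503, 513 and 430 normalised counts in controls, 285, 331 and 403 after 24H and 421, 447 and 418 after 48H. The 24H libraries lay below all controls and all 48H libraries, and the 48H libraries overlapped the controls. The log2 fold change was -0.50 at 24H (standard error 0.112, adjusted p = 0.181), -0.17 at 48H (adjusted p = 0.369) and 0.34 from 24H to 48H (standard error 0.113, adjusted p = 0.0934). The last of these passed under the GC correction (0.37, adjusted p = 0.0486) and without TMAO 24H replicate 3 (0.48, adjusted p = 0.0222). At 24H it passed in DESeq2 (adjusted p = 0.0197) and without TMAO 24H replicate 3 (-0.65, adjusted p = 0.0482), and was -0.39 without TMAO 24H replicate 1 (adjusted p = 0.566). FOXC1 was lower in level, with 75.6 ± 8.85 normalised counts in controls, 76.2 ± 14.5 after 24H and 59.9 ± 12.3 after 48H (SD, n = 3 each), and its groups overlapped.

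FOXS1, a forkhead gene known from derivatives of the neural crest, had 75.0, 71.7 and 88.7 normalised counts in controls, 63.9, 66.2 and 63.6 after 24H and 52.4, 24.7 and 57.5 after 48H. The groups did not overlap in any pair, and TMAO 48H replicate 2 was the lowest library. The log2 fold change at 48H was -0.82 with a standard error of 0.251, the largest fall of a member with at least 50 normalised counts, and it did not pass (adjusted p = 0.0541). It passed in DESeq2 (adjusted p = 0.0357), with ribosomal RNA genes removed (0.0348), with at least 10 counts required in every library (0.0416) and without TMAO 48H replicate 3 (0.0265). Without TMAO 48H replicate 2 the value was -0.51 (adjusted p = 0.135). FOXL1, a factor of gut mesenchyme whose recognition helix is printed above beside that of FOXC2, had 369, 367 and 385 normalised counts in controls, 408, 398 and 417 after 24H and 402, 442 and 388 after 48H. Its treated libraries lay above all controls at both time-points, with log2 fold changes of 0.13 (adjusted p = 0.785) and 0.14 (adjusted p = 0.272). FOXF1, a factor of lung vessels, stayed between 19.6 and 43.1 normalised counts, and FOXA3, with 14.6 to 18.1 in controls and 22.7 to 26.9 after 24H, had a log2 fold change of 0.62 there (standard error 0.273, adjusted p = 0.672).

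The 24H values of SOX18 and FOXC2, neither of which passed, were set beside the library and GC content, whose part in them was not tested. Their transcripts hold 69.4% and 62.1% of G and C. The tested members above 60% GC numbered 12, with SOX18 and FOXC2 among them. Their median log2 ratio to the control mean was -0.31 in TMAO 24H replicate 1, the library rich in ribosomal RNA. This median was -0.19 in replicate 2 and 0.0072 in replicate 3. Over the 19 members at or under 60% it was -0.019, -0.017 and 0.012. FOXA3, with 62.1% GC, lay above 0 in all 3 libraries (0.74, 0.50 and 0.59). For all 2215 tested genes above 60% GC the same 3 medians were -0.073, -0.065 and -0.024. In the TMAO 48H libraries the medians of these genes were -0.113, -0.115 and -0.085. With a correction for GC content, the 24H log2 fold change was -0.39 for SOX18 (adjusted p = 0.675) and -0.45 for FOXC2 (adjusted p = 0.291). SOX17 and SOX4, with 58.3% and 50.7% GC, gave -0.59 (adjusted p = 8.4e-05) and -0.36 (adjusted p = 0.00155) at 48H under the same correction.

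**Figure D4:**
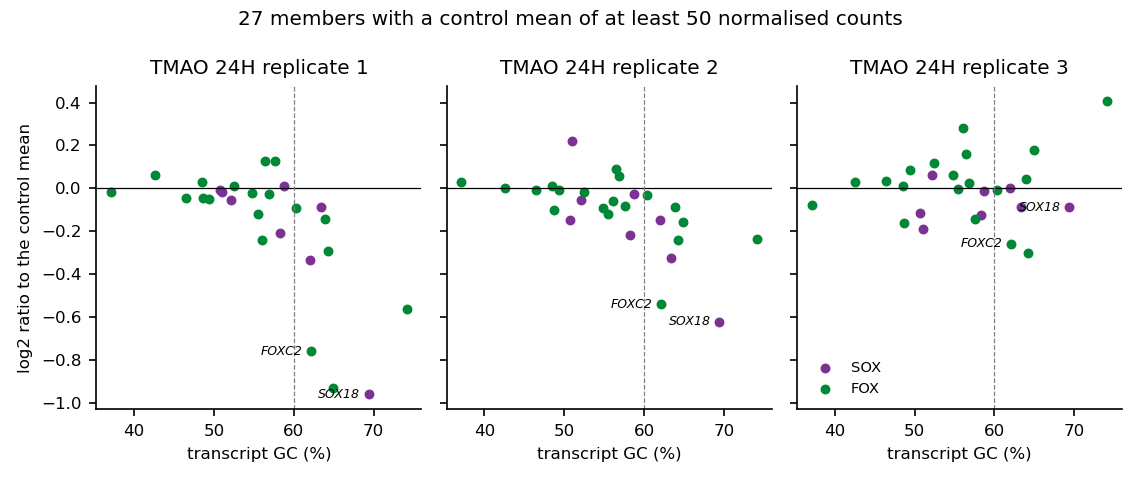
Log2 ratio to the control mean against transcript GC content for the 27 members with at least 50 normalised counts in controls, one panel per TMAO 24H library, with a dashed line at 60% GC. SOX18 and FOXC2 are named. Members above 60% GC lie mostly below 0 in replicates 1 and 2 and around 0 in replicate 3.

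The FOXO factors, which AKT phosphorylates and keeps out of the nucleus, did not pass the test in any contrast. FOXO1 had 1583, 1513 and 1480 normalised counts in controls, 1479, 1517 and 1563 after 24H and 1426, 1515 and 1517 after 48H, a log2 difference at 48H of -0.04 ± 0.0472 (SE, adjusted p = 0.668). FOXO4 had 945, 973 and 989 in controls, 951, 1009 and 987 after 24H and 1091, 981 and 1084 after 48H, with a log2 fold change of 0.12 at 48H (standard error 0.0552, adjusted p = 0.197). FOXO6 had 111 ± 1.27, 106 ± 37.6 and 105 ± 5.81 normalised counts (SD, n = 3 each), with 75.1, 94.3 and 148 in the 24H libraries.

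FOXO3 shares reads with FOXO3B, which GENCODE release 29 annotates as a processed pseudogene. Their transcripts were identical at 1910 of 1928 aligned bases (99.1%). A stretch of 120 coding bases of FOXO3 at chr6:108561706-108561825 (+ strand) is shown beside its copy at chr17:18672310-18672429 (- strand), with capitals at the 4 bases that differ. It was picked because no other coding stretch of that length within one exon differed at more bases, so most of the alignment is more alike.
FOXO3: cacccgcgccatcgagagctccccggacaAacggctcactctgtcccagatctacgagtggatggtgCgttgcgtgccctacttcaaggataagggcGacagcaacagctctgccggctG
FOXO3B: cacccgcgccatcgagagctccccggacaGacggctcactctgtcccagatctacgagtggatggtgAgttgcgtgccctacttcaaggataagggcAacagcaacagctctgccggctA
The deposited FOXO3 count was a fraction in all 9 libraries, while the sum of FOXO3 and FOXO3B was whole within 0.005 in 9 of 9, so the counting split reads between the 2 genes. FOXO3B took 13.3% to 16.7% of the sum, so the FOXO3 value is uncertain by about that share and the FOXO3B value as a whole. FOXO3 alone had 1795 ± 47.1 normalised counts in controls, 1808 ± 88.5 after 24H and 1893 ± 99.6 after 48H (SD, n = 3 each), with a log2 fold change of 0.08 at 48H (standard error 0.0512, adjusted p = 0.375). With both counts summed it was 0.061 (standard error 0.0489, adjusted p = 0.475).

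FOXM1, the highest member, had 8708, 8804 and 7953 normalised counts in controls, 8374, 7973 and 8848 after 24H and 7963, 8475 and 9072 after 48H. The groups overlapped throughout, and the log2 fold change at 48H was 0.0026 with a standard error of 0.0571 (adjusted p = 0.986), a sign that turned under other scalings. FOXK2 had 3330, 3493 and 3047 normalised counts in controls and 3092, 3426 and 3465 after 48H. Its paralog FOXK1 had 2301, 2200 and 2705 in controls and 1961, 1921 and 2236 after 48H, a log2 fold change of -0.24 (standard error 0.0856) that did not pass (adjusted p = 0.0976) but did in DESeq2 (adjusted p = 0.0444) and without TMAO 48H replicate 3 (adjusted p = 0.0434). The repressors FOXP1 and FOXP4 had log2 fold changes at 48H of -0.08 (standard error 0.0510, adjusted p = 0.347) and -0.14 (standard error 0.0888, adjusted p = 0.327). FOXJ2 and FOXJ3 had 0.12 (adjusted p = 0.265) and -0.03 (adjusted p = 0.723).

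Genes around these factors were taken from hand-written lists. No gene of any list passed at 24H in edgeR, while 0 to 9 genes per list had an unadjusted p under 0.05 there. At that unadjusted p, 2.77% of all genes were higher and 4.47% lower. In DESeq2, 0 to 2 per list passed at 24H, and 55 over all genes. Of 16 tested endothelial genes known as targets of SOXF or FOXC factors, 5 passed as lower at 48H and none as higher. The shares over all genes were 5.29% lower and 5.13% higher. The median change of the listed targets on the log2 scale was -0.15, against 0.0040 for all genes. NOTCH4, a Notch receptor of endothelium, fell from 546 to 416 mean normalised counts (-0.39, standard error 0.0920, adjusted p = 0.0171), KDR, the main VEGF receptor, by 0.27 on the log2 scale (adjusted p = 0.0110) and CDH5, which encodes VE-cadherin, by 0.26 (adjusted p = 0.0181). At an unadjusted p under 0.05 there were 8 such genes at 48H, 1 higher and 7 lower. These are 6.25% and 43.8% of the list, against 13.2% higher and 12.6% lower over all genes. DESeq2 passed 5 of the list at 48H, and 1716 over all genes.

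Endothelial marker genes moved beside SOX17 and SOX4. Of 13 tested, 8 passed as lower at 48H and none as higher, against 5.29% lower and 5.13% higher over all genes. These markers had a median of -0.25, led by ROBO4 (-0.33, standard error 0.0520, adjusted p = 0.0019), EGFL7 (-0.28, adjusted p = 0.0233) and KDR. Their summed level was 3051 to 3386 CPM in controls, 3037 to 3226 after 24H and 2690 to 2925 after 48H. Between the time-points 6 passed as lower and 1 as higher, VWF, which encodes von Willebrand factor (0.51, standard error 0.0770, adjusted p = 0.0011), with mean normalised counts of 3378 in controls, 2531 after 24H and 3598 after 48H. The shares over all genes between the time-points were 3.76% lower and 3.77% higher. Of the endothelial markers, 4 also stand in the target list (KDR, CDH5, TEK and CLDN5). In RNA from a whole culture, fewer cells of a type and less RNA per cell cannot be told apart.

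Markers of other cell types were measured in the same way, beside shares over all genes of 5.13% higher and 5.29% lower at 48H. Of 10 tested mesenchymal markers, 2 passed as lower and 2 as higher at 48H, and DCN and LUM, defining genes of fibroblasts, were at or near 0 in every library. COL1A2 fell from 8983 to 4260 mean normalised counts (-1.08, adjusted p = 6.0e-06) and COL1A1 by 0.67 on the log2 scale (adjusted p = 2.2e-05), while ACTA2 (0.74, adjusted p = 0.0019) and THY1 (0.47, adjusted p = 0.0015) rose. The summed level of the mesenchymal list was 1327 to 1521 CPM in controls, 1334 to 1432 after 24H and 1035 to 1119 after 48H. Its largest parts were COL1A1 (404 to 715 CPM over all libraries), MCAM (289 to 356) and COL1A2 (129 to 317). Of 8 epithelial markers, 1 passed, KRT18 (-0.24, adjusted p = 0.0131). The summed epithelial level was 778 to 850 CPM in controls, 739 to 787 after 24H and 636 to 727 after 48H. KRT18 alone lay at 548 to 705 CPM over all libraries, so this sum mostly follows that gene. Of 6 leukocyte markers, 2 could be tested and none passed, with 0 at an unadjusted p under 0.05 and 0 in DESeq2 in each contrast. The summed leukocyte level was 19.6 to 23.7 CPM in all libraries. CD68 alone had 18.2 CPM in its lowest library, so this sum mostly follows that gene. The part of these markers in the fall of SOX17 and SOX4 was not tested.

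**Figure D5:**
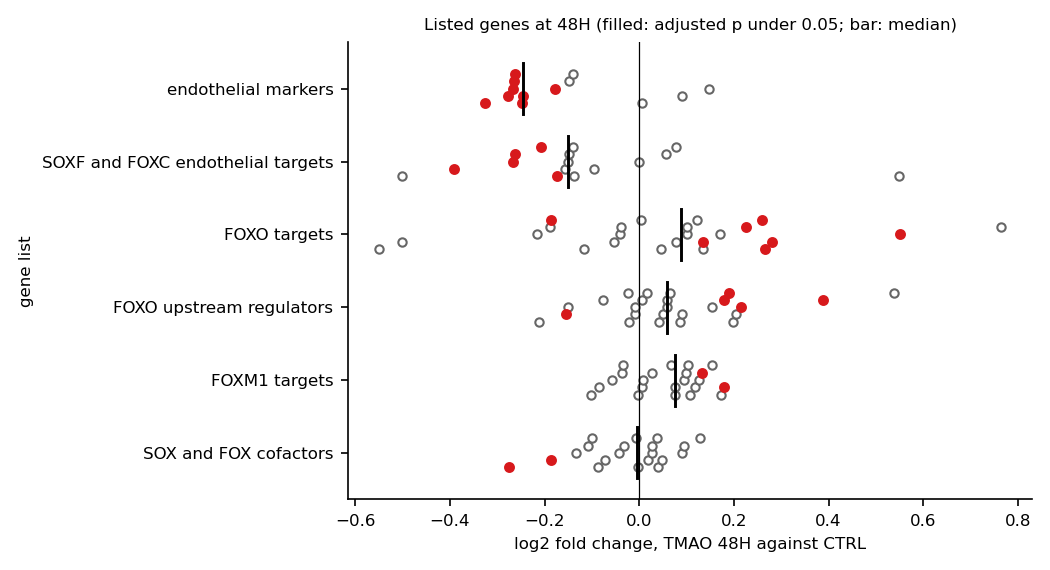
Log2 fold change at 48H against CTRL of the tested genes of 6 lists around the SOX and FOX factors, one row per list, with filled points for an adjusted p under 0.05 and a bar at the list's median. The endothelial markers and SOXF and FOXC targets lie mostly left of 0 (medians -0.25 and -0.15), and the filled FOXO targets mostly right of it (median 0.089).

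Of 24 tested FOXO target genes, 6 passed as higher and 1 as lower at 48H, with a median of 0.089. The shares over all genes were 5.13% higher and 5.29% lower. The largest rises among these targets were TXNIP, which binds thioredoxin and limits glucose uptake (from 3101 to 4542 in mean normalised counts, 0.55 ± 0.0558 SE on the log2 scale, adjusted p = 7.5e-05), SESN1, a stress-induced sestrin (0.28, adjusted p = 0.0194), and GADD45B, a growth-arrest gene (0.27, adjusted p = 0.0273). PINK1, a kinase of mitochondrial quality control, fell by 0.19 on the log2 scale (adjusted p = 0.0233). From 24H to 48H, 5 passed as higher and 1 as lower, against 3.77% and 3.76% over all genes. At 24H none passed, and the genes with p under 0.05 before adjustment were 4 with a higher and 5 with a lower level. These are 16.7% and 20.8% of the list, against 2.77% and 4.47% over all genes.

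Of 25 genes that act upstream of FOXO, 4 passed as higher and 1 as lower at 48H, with a median of 0.059. The shares over all genes were 5.13% higher and 5.29% lower. MDM2, a ubiquitin ligase, rose from 6134 to 8024 mean normalised counts (0.39, standard error 0.0716, adjusted p = 0.0047) and MAPK9 by 0.19 (adjusted p = 0.0368), while AKT2 fell by 0.16 on the log2 scale (adjusted p = 0.0434). SGK1, a kinase that also phosphorylates FOXO3, was 0.57 higher on the log2 scale at 48H than at 24H (standard error 0.0748, adjusted p = 0.000334). Of 22 tested FOXM1 targets, 2 passed as higher at 48H and none as lower, SKP2 (0.18, adjusted p = 0.0210) and CCNA2 (0.13, adjusted p = 0.0482), with a median of 0.075. Of 20 cofactors of SOX and FOX proteins, 2 passed as lower, the corepressors TLE1 (-0.28, adjusted p = 0.0095) and CTBP1 (-0.19, adjusted p = 0.0109), with a median of -0.0040. Over all genes, 5.13% passed as higher and 5.29% as lower at 48H. At an unadjusted p under 0.05, 8 FOXM1 targets were higher and 0 lower at 48H (36.4% and 0%). Of the cofactors, 1 was higher and 3 were lower at that p (5% and 15%). The shares over all genes there were 13.2% higher and 12.6% lower.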

How the data were processed

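Total RNA of 9 HMEC-1 samples was sequenced. The authors trimmed the reads with Trim Galore, per the labels' processing notes, processed them with the nf-core pipeline for RNA sequencing and deposited, for each gene symbol, an estimated count without normalisation. The quantifier, genome build and annotation are not given in the sources used here. The study pooled the controls of both time-points.

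For the tests these values were rounded. In R 4.3.3, edgeR 4.0.16 was run on all 9 libraries (filterByExpr, TMM, quasi-likelihood fit with legacy = FALSE, Benjamini-Hochberg adjustment over 14740 genes). The biological coefficient of variation was 0.0744. Standard errors were derived from the F statistic. Normalised counts are counts divided by the effective library size and multiplied by its mean. Counts per kilobase used the longest protein-coding transcript of GENCODE release 29, and GC content was matched for 13218 of the 14740 genes (89.7%). Members, lists and tests were chosen with earlier results of these data known. The thresholds were an adjusted p under 0.05 and 1.4-fold, after the study's methods. Members were named that passed in a contrast, were the 5 highest SOX or 8 highest FOX genes per length, were known in endothelium or growth, or had the largest rise or fall among those with at least 50 normalised counts. All tested members could be named, and of each list at most the 3 largest rises and falls that passed in a contrast.

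Alternatives were DESeq2 1.42.0, RLE factors, other filters, only the 2 groups compared, a block for the replicate number, a GC correction, the older quasi-likelihood fit, removal of 23 ribosomal RNA genes, a test against 1.4-fold and leaving out each library. For FOXO3, the sum with FOXO3B was added after the data were seen. No proteins were printed, since no protein table was used here. The values of 1 listed gene that passed are not reported here.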

Additional observations from a re-analysis of the deposited data

Results flagged for a closer look

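In the direct comparison of the TMAO 48H with the TMAO 24H libraries, 3 members differed in edgeR's quasi-likelihood test. Each time-point had no controls of its own in the labels, so treatment and time in culture cannot be told apart here. SOX17 was lower at 48H by -0.45 on the log2 scale (adjusted p = 0.000704), SOX4 by -0.27 (adjusted p = 0.00788), and FOXN3 was higher by 0.19 (adjusted p = 0.0398). Over all genes, 3.77% passed as higher and 3.76% as lower in this contrast. In each of the 3 members, all 3 libraries at 48H lay on one side of all 3 at 24H. The same held for FOXC2, FOXN2 and FOXS1, which did not pass in this test. How many genes of all kinds separate in this way was not counted. For SOX17 and SOX4 the difference passed in all 19 alternatives that tested for any fold, and for FOXN3 in 10 of these 19. None of the 3 passed in the test against 1.4-fold, which estimates under 1.4-fold, as all of these were, cannot pass. Over all genes 50 passed that test here. With 3 libraries per group, single libraries were not tested as outliers.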

How the results depend on the processing

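SOX17 and SOX4 kept their direction and their adjusted p under 0.05 at 48H and between the time-points in all 19 alternatives that tested for any fold, with 48H values from -0.70 to -0.59 and from -0.41 to -0.31. FOXN3 passed in 12 of 19 at 48H and in 10 of 19 between the time-points. The number of members passing was 0 at 24H, 3 at 48H and 3 between the time-points. In DESeq2 it was 1 at 24H and 5 at 48H (SOX17, SOX4, FOXN3, FOXS1 and FOXK1), while 55 and 1716 genes passed there over all genes. At least 1.4-fold left 1 member at 48H and 0 between the time-points, and the test against 1.4-fold left 0 members in both contrasts. Over all genes that test passed 23 at 48H and 50 between the time-points. An estimate under 1.4-fold, as for SOX4 in both contrasts and SOX17 between the time-points, cannot pass it. Leaving out single libraries gave 0 to 2 members at 24H, the 2 without TMAO 24H replicate 3, then 2 to 4 at 48H and 2 to 3 between the time-points. The median of the members between the time-points, 0.018, ranged from -0.021 to 0.034 when single libraries were left out, turning below 0 without TMAO 24H replicate 1, TMAO 24H replicate 2 or TMAO 48H replicate 3, and that at 48H turned to 0.017 under the GC correction. The cause was not tested.

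With the replicate number as a block, 0, 2 and 2 members passed in the 3 contrasts, since FOXN3 did not (adjusted p = 0.0610 and 0.0992). The labels do not say that the numbers mark a shared batch, so they were not taken as a pairing. Deviations of same-numbered libraries had correlations from -0.12 to 0.091 (9 pairs), and those of differently numbered ones from -0.10 to 0.16 (18 pairs). Whether a batch was shared was not tested. Over all genes the passing number at 24H was 14, against 55 in DESeq2, 1 with the replicate block, 22 with only the 2 groups compared and 0 to 24 with single libraries left out. At 48H it was 1536, against 1716 in DESeq2, 981 with only the 2 groups compared and 944 with the block. It was 685 at 48H with the block and the GC correction and 700 to 1594 with single libraries left out. Between the time-points it was 1109, against 1227 in DESeq2, 730 with the block and 558 to 1282 with single libraries left out.

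Estimates near 0 changed sign and none of these passed. Under the GC correction, without and with the replicate block, SOX13 at 24H was 0.0135 and 0.0140 and SOX12 at 48H 0.0657 and 0.0641. FOXM1 at 48H was -0.00027 in DESeq2, -0.00077 with RLE factors, -0.0026 with only the 2 groups and -0.0032 with ribosomal RNA genes removed. Ranges with single libraries left out spanned 0 at 24H for FOXC1 (-0.15 to 0.12), FOXJ2 (-0.0061 to 0.065), FOXM1 (-0.057 to 0.021), FOXN3 (-0.011 to 0.072), FOXO1 (-0.026 to 0.022), FOXO3 (-0.029 to 0.041), FOXO4 (-0.00028 to 0.043), FOXP4 (-0.14 to 0.014), SOX13 (-0.050 to 0.029) and SOX7 (-0.060 to 0.015). They did so at 48H for FOXJ3 (-0.074 to 0.014), FOXK2 (-0.041 to 0.067), FOXM1 (-0.047 to 0.048) and SOX12 (-0.060 to 0.0069), and between the time-points for FOXF1 (-0.10 to 0.45), FOXL1 (-0.047 to 0.050), FOXM1 (-0.031 to 0.063), FOXP1 (-0.026 to 0.048), FOXP4 (-0.15 to 0.011), SOX18 (-0.071 to 0.38) and SOX7 (-0.073 to 0.0024). With 3 libraries per group, members below about 50 counts had standard errors up to 0.43 on the log2 scale.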
